A study of Homo sapiens with 16 samples.

Results

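The genes described here encode the subunits of the mitochondrial respiratory chain and the ATP synthase that are read from the nuclear genome. They were followed in H9 human embryonic stem cells as the cells were led toward endoderm. Members were the rows of the array table with a gene symbol of the NDUFA, NDUFB, NDUFC, NDUFS, NDUFV, SDH, UQCR, COX4 to COX8 or ATP5 series. Of 18495 rows, 97 matched the rule and carried 86 such symbols. Keeping for each gene the row with the highest mean left 81 distinct rows: 36 for complex I, 3 for complex II, 7 for complex III, 17 for complex IV and 18 for complex V. A row stands for 1 gene in 63 cases. In the other 18 it carries the symbol of a neighbour, a copy or a small RNA as well, and such a row was counted but its value was not given to 1 gene. The symbols include 3 that are not subunits: ATP5IF1, an inhibitor of the ATP synthase, COX7A2L, a factor that joins complexes III and IV, and NDUFA6-DT, a transcript beside NDUFA6. NDUFA4, SDHB and UQCRFS1 were not analysed here.

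Complex I takes electrons from NADH and complex II from succinate, complex III passes them to cytochrome c, and complex IV hands them to oxygen. Complexes I, III and IV pump protons out of the mitochondrial matrix, and complex V, the ATP synthase, lets them back in and makes ATP. Pluripotent stem cells are known for a high rate of glycolysis, and their mitochondria are known to mature as they differentiate. Complex II is also an enzyme of the tricarboxylic acid (TCA) cycle and is encoded wholly by nuclear genes, whereas the other complexes hold a few subunits made from mitochondrial DNA.

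The day 0 group was undifferentiated H9, an established embryonic stem cell line, grown on feeder layers or on Matrigel in conditioned medium, to which 8 ng/ml of basic FGF was added. The day 1, day 3 and day 5 groups were H9 cells kept for that time in RPMI with 100 ng/ml activin A, a ligand of the nodal pathway, while serum was stepped from 0% to 0.2% and 2%. Activin, medium, serum and time therefore changed together and cannot be told apart. Days 0 and 5 had 4 biological samples each, and days 1 and 3 had 3 each. Replicate 4 of days 0 and 5 was run on a pair of arrays that were averaged, so 16 arrays gave 14 samples. The labels call these biological replicates and do not say whether they were separate cultures, so p-values measure only the spread between these samples.

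All values below are log2 of deposited intensity plus 1, and a difference of 1 is a doubling. Median intensity per array ran from 245.1 to 246.3, and an array has no read depth, so the number of samples limits the precision. The sample labelled day 3 replicate 2 stood apart: its median correlation with its own group was the lowest of the 14 samples. The next lowest was that of day 5 replicate 2, at 0.858, and the other 12 ranged from 0.901 to 0.962. Its markers also went against its label: the summed intensity of 9 endoderm markers was 3870, within the 2630 to 7240 of day 0, and that of 8 primitive streak markers 2270, within 1560 to 3210, while the other day 3 samples had 39200 and 44600, and 25800 and 25500. Whether that sample is mislabelled or did not differentiate was not tested. Except under the alternatives at the close, day 3 differences from day 0, and their counts, are given with and without it. Unadjusted counts between day 3 and days 1 and 5 are given with all samples only. Mean levels of the members' rows ran from 6.64 to 13.91 in complex I, 10.08 to 11.68 in II, 10.62 to 12.67 in III, 4.35 to 12.82 in IV and 10.31 to 13.76 in V, and levels of different rows are not compared. The 13.91 is that of the row shared by NDUFS7 with RPS15, a gene outside the chain. A row of NDUFS7 alone averaged 9.02 and was not kept, as the rule takes the highest mean. In RNA from a whole culture, fewer cells of a type and less RNA per cell cannot be told apart.

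Promoters are shown first to give sequence features of the members that the rule did not use. RefSeq promoter windows on GRCh38.p14, from 250 bases before to 50 bases after the start site, were found for 65 of the 78 subunit genes. Each was searched on both strands for 4 motifs. The NRF1 motif GCGCATGC (NRF1 is a factor known to drive respiratory chain genes) lay in 12 of the 65 windows (18.5%), against 3.05% of 35116 promoters of all genes. The ETS motif CCGGAAG, bound by GABPA, a factor known for the same role, lay in 19 windows (29.2%, against 10.26%). The YY1 motif AAGATGGC lay in 10 (15.4%, against 2.89%), and TATAAA, the TATA box, in 7 (10.8%, against 11.53%). Among 22199 promoters of coding genes alone the shares were 3.74%, 12.84%, 3.53% and 9.47%, so the order of members and background turned for the TATA box. No test of these shares was made. A further 28 windows held none of the 4. GCGCATGC and its reverse complement overlap in GCGCATGCGC, which is 1 stretch in the windows below. A match is a run of letters and not a proven site, and its absence says nothing about a factor.

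The 160 bases before the start site are shown for 6 members that the results below return to, read 5′ to 3′ on the gene's own strand. Capitals mark the NRF1 and ETS letters that lie wholly before the start site. In SDHD (chr11:112086713-112086872, plus strand), a complex II anchor subunit, NRF1 letters begin at position -110 and ETS letters at -77. ATP5MC2 (chr12:53676084-53676243, minus strand), a c subunit gene, has NRF1 letters at -40, and ATP5F1C (chr10:7788017-7788176, plus strand), the gamma subunit, at -22. COX5B (chr2:97645902-97646061, plus strand) has NRF1 letters at -136 and ETS letters at -37. A further ETS match of COX5B begins at -5 and runs past the start site, so it is not in capitals. NDUFS6 (chr5:1801247-1801406, plus strand) has NRF1 letters at -46 and NDUFB4 (chr3:120596176-120596335, plus strand) at -159. These 6 genes were chosen after their values were seen.
SDHD: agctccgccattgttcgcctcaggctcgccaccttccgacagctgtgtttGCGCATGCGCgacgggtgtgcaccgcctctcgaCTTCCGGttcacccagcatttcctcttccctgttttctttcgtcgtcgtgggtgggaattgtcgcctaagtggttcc
ATP5MC2: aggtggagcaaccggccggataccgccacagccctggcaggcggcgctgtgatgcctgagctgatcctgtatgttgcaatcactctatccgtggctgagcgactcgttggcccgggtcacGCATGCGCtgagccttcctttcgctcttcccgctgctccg
ATP5F1C: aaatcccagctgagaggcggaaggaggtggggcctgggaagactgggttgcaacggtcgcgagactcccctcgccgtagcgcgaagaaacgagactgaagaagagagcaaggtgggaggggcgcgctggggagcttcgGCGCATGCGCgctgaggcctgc
COX5B: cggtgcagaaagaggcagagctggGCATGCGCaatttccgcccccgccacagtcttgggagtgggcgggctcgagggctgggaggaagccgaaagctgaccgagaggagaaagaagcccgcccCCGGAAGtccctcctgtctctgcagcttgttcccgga
NDUFS6: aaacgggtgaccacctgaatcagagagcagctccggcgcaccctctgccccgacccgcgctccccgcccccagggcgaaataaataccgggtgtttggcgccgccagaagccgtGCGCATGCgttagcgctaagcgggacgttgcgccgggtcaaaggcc
NDUFB4: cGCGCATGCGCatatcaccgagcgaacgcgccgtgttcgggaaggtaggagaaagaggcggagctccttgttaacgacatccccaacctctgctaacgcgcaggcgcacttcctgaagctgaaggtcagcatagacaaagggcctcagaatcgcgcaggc

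With all samples, the members moved together from sample to sample within a day more than they moved between days. Each row was set against its own day 0 mean, and the median over the 81 rows was taken in every sample. At day 0 this median was -0.04, -0.02, 0.57 and -0.44 in replicates 1 to 4. At day 1 it was -0.10, 0.44 and -0.13, at day 3 -0.27, 0.85 and -0.26, and at day 5 0.44, 0.79, -0.30 and -0.34. One sample of each day therefore stood high (replicate 3 at day 0, replicate 2 at days 1 and 3), with replicates 1 and 2 high at day 5. Averaged over samples, this median was 0.02 ± 0.42 (SD) for the 4 samples of day 0 and 0.07 ± 0.32 for the 3 of day 1. For the 3 of day 3 it was 0.11 ± 0.64 and for the 4 of day 5 it was 0.15 ± 0.56. With all samples the differences between days were thus smaller than the SD within any of them. Without replicate 2 the day 3 value was -0.26 (n = 2, samples at -0.27 and -0.26). The spread of 2 samples is too poorly known to set these gaps against it, so the statement could not be checked for day 3 then. Both samples lay within the range of day 0 (-0.44 to 0.57) and of day 5 (-0.34 to 0.79). They lay under the lowest day 1 sample (-0.13).

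The same order held in most single members. Day 0 replicate 3 was the highest of its day in 66 of 81 members, against 27.2% of all rows, and day 0 replicate 4 the lowest in 58. Day 1 replicate 2 was the highest in 63 (41.7% of all rows), day 3 replicate 2 in 67 (46.4%) and day 5 replicate 2 in 62 (38.7%). COX5B, a nuclear subunit that surrounds the mitochondrially encoded core of complex IV, shows the pattern. Its 4 values were 11.02, 10.83, 12.04 and 9.99 before activin, and the 3 after 1 day were 10.74, 11.51 and 10.66. They were 10.14, 12.62 and 10.62 on day 3 and 11.79, 12.45, 10.45 and 10.28 on day 5. Its highest sample at day 0 lay above all but 2 of the samples of the later days, and its groups overlapped. Day 3 replicate 2 lay above the mean of the other day 3 samples in 69 members, at least 2-fold above in 45 (55.6%, against 25.7% of all rows), with a median gap of 1.08.

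A smaller set went the other way. In 12 members day 3 replicate 2 lay below the other day 3 samples: NDUFS6, NDUFV1, NDUFA10, NDUFB4, SDHA, UQCRC1, ATP5F1A, ATP5F1D, COX7A1, COX8C and the rows shared by ATP5F1B with 2 small RNAs and by NDUFS7 with RPS15. NDUFS6, which lies in the electron input arm of complex I, was at 11.97, 11.04 and 11.52 at day 3 and 12.20, 11.06, 11.96 and 11.91 at day 5, so replicate 2 was the lowest sample on both days. NDUFV1, which binds the NADH cofactor FMN, was at 10.40, 9.86 and 10.69 at day 3 and 10.29, 9.77, 10.88 and 10.80 at day 5, again with replicate 2 lowest. NDUFB4, an accessory subunit in the membrane arm of complex I, spanned only 12.22 to 12.53 at day 3. Of the 12 genes with NRF1 letters in the promoter window, NDUFS6, NDUFB4 and NDUFS7 (on its row shared with RPS15) were among those below. In the rest, SDHD and COX5B among them, day 3 replicate 2 lay above the mean of the other day 3 samples. In ATP5MC2 it lay between them, at 12.77 against 12.57 and 12.87. Whether these letters go with the sample pattern was not tested.

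Rows outside the respiratory chain shared the sample pattern. The median over 66 mitochondrial ribosomal protein rows was 0.44 in day 0 replicate 3, 0.45 in day 1 replicate 2, 0.85 in day 3 replicate 2 and 0.61 in day 5 replicate 2. Over 84 cytosolic ribosomal protein rows these medians were 0.23, 0.26, 0.47 and 0.41, and over 32 proteasome subunit rows 0.23, 0.40, 0.16 and 0.31. In 1971 rows as bright as the middle of the members they were -0.06, -0.02, -0.32 and -0.30, so the shift was not one of all rows of that brightness. Among these bright rows the gap of day 3 replicate 2 moved with gene length: it was 0.15 in the class of shortest genes (403 to 9420 bases) and -0.77 in the longest (75104 to 847874), while the members' medians lay between 0.97 and 2.34 over the same classes, with only 3 members in the longest. Paired arrays of 1 sample differed by a median of 0.13 over the members at day 0 and 0.20 at day 5, against 0.25 to 0.97 and 0.12 to 1.17 between biological samples. The part that RNA quality, labelling or culture has in this pattern was not tested.

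**Figure D1:**
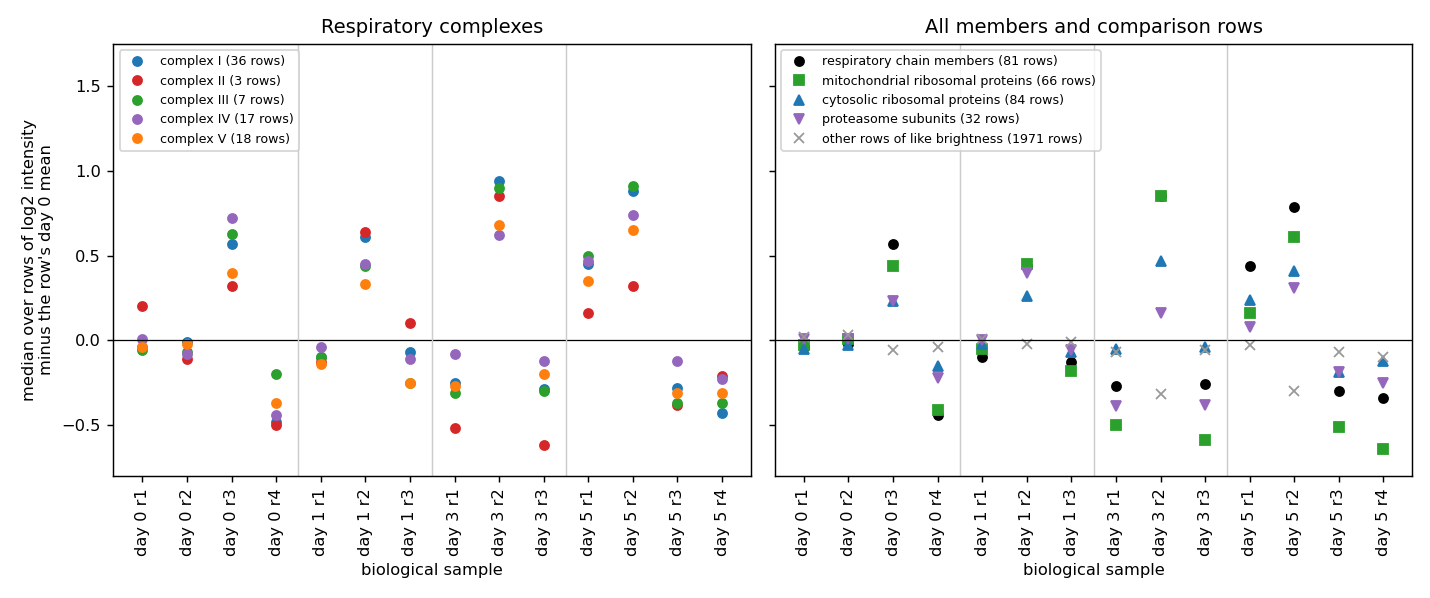
Median, over rows, of log2 intensity minus the row's day 0 mean, for each of the 14 biological samples (r, replicate). The left panel shows the 5 complexes and the right panel all 81 members beside other rows; the members stand at 0.57 in day 0 replicate 3, 0.85 in day 3 replicate 2 and 0.79 in day 5 replicate 2, and at -0.44 in day 0 replicate 4.

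The comparison of each later day with day 0 asks which subunit genes respond to the activin protocol. No member passed the test in any of the 5 contrasts (limma with Benjamini-Hochberg adjustment over all 18495 rows, threshold 0.05), with all samples or without day 3 replicate 2. Over all rows, 0.00541% passed at day 1 against day 0, 0.027% at day 3 and 5.46% at day 5, and without day 3 replicate 2 these shares were 0.249%, 3.19% and 8.73%. Between day 3 and day 1, 0.0324% of all rows passed (2.73% without that sample), and between day 5 and day 3, 0.0973% (0.157%). At an unadjusted p under 0.05 there were 0 members at day 1, 1 at day 3 and 2 at day 5, against 6.03%, 8.56% and 17.2% of all rows. Leaving out day 3 replicate 2 moved these counts to 1, 6 and 4, against 8.31%, 14.3% and 21.2%. The 6 at day 3 were ATP5MC1, SDHD, NDUFA5, NDUFC2, UQCRC2 and the row shared by NDUFS1 and GCSHP3, all lower. With all samples there was 1 between day 3 and day 1 and 0 between day 5 and day 3, against 8.62% and 5.99%. The absence of a call does not show that the levels were equal: the 95% interval of the difference lay within 2-fold in either direction for 38 of 81 members at day 1, 32 at day 3 and 35 at day 5, and its median half-width was 0.89, 0.89 and 0.83. These were 47, 27 and 41 members with day 3 replicate 2 left out.

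The median difference over the members was 0.06 at day 1, 0.11 at day 3 and 0.17 at day 5, beside 0.03, -0.01 and -0.02 over all rows. When day 3 replicate 2 was left out the day 3 median was -0.22, beside -0.03 over all rows, so the sign of the day 3 value turned with that sample. Between day 3 and day 1 the members' median was 0.07 with all samples and -0.30 without that sample (all rows -0.02 and -0.06). Between day 5 and day 3 it was 0.07 and 0.41 (all rows -0.02 and -0.01). At day 5 the complexes ranked IV (0.25), I (0.19), III (0.15), V (0.03) and II (-0.33), but complex II is only 3 genes. At day 3 complex II stood at -0.51 and the other complexes between 0.04 and 0.22. All 5 were below 0 at day 3 once its replicate 2 was left out: -0.29, -0.57, -0.18, -0.15 and -0.23 for complexes I to V. At day 1 the 5 medians lay between -0.04 for complex V and 0.17 for complex II. In day 3 replicate 2 the sample medians of complexes I to V were 0.94, 0.85, 0.90, 0.62 and 0.68, and in day 5 replicate 2 they were 0.88, 0.32, 0.91, 0.74 and 0.65, all above 0. No test was made between complexes, since their genes are not replicates.

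**Figure D2:**
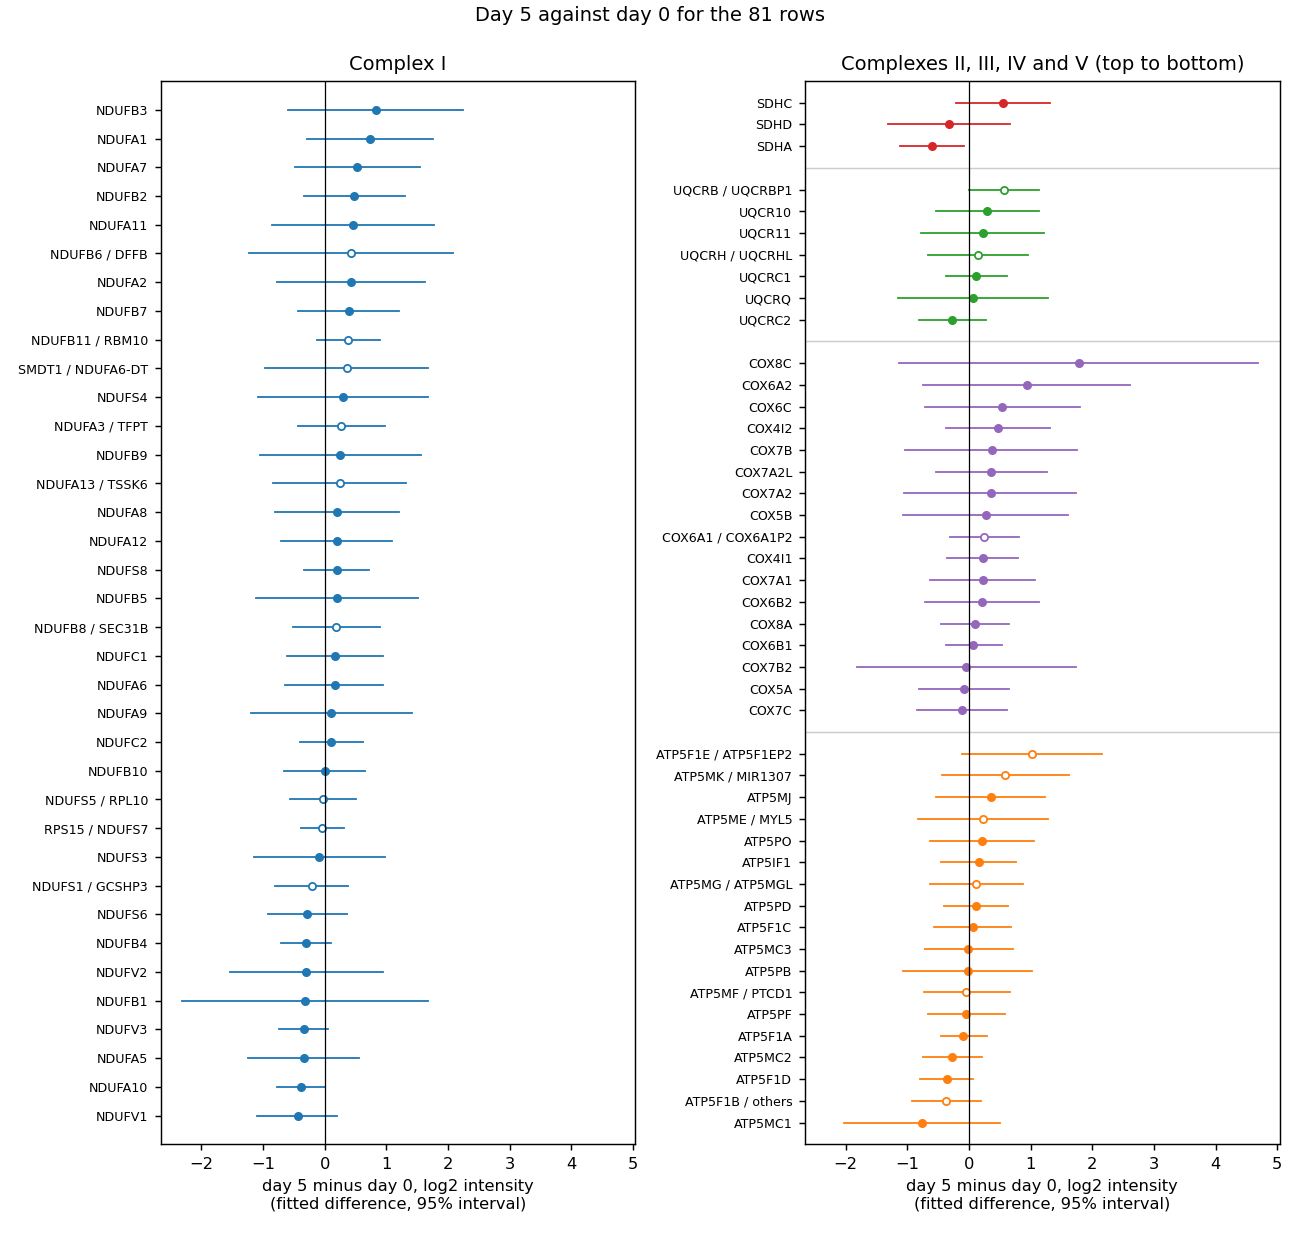
Fitted difference between day 5 and day 0 for the 81 rows (points) with its 95% interval (lines), on the log2 scale, sorted within each complex; filled points are rows with 1 symbol and open points rows with several. Of the intervals on rows with 1 symbol, that of SDHA (-1.12 to -0.08) does not reach 0, and the widest is that of COX8C (-1.13 to 4.69).

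Groups that did not overlap were few. At day 5 there were 3, against 14.6% of all rows: NDUFA10 and ATP5F1D were lower and the row shared by UQCRB and its pseudogene UQCRBP1 was higher. At day 1 there were 4 (11.5% of all rows): NDUFV3 was lower, and COX4I1 and the shared rows of UQCRB and of ATP5F1E with its pseudogene were higher. At day 3 there were 2 (9.82%), SDHA and ATP5F1A, both lower. Leaving out day 3 replicate 2 gave 16 that were lower at day 3, against 17.4% of all rows that were lower. It gave 0 that were higher, against 14.9% of all rows. Shares of members near or under those of all rows are no result about the members.

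In complex I, the core subunit NDUFV1 averaged 10.88 ± 0.28 (SD) over the 4 day 0 samples and 10.44 ± 0.51 over the 4 of day 5, which differ by -0.44 ± 0.30 (SE, limma adjusted p 0.525). NDUFA9, which lies near the quinone site, was 10.30 ± 0.63 at day 0 and 10.40 ± 0.96 at day 5. Of the accessory subunits, NDUFA10 was at 11.07, 11.04, 11.18 and 10.85 at day 0 and at 10.71, 10.84, 10.55 and 10.54 at day 5, so that every day 5 sample lay under every day 0 sample. Its difference was -0.38 ± 0.18 (limma adjusted p 0.313). It is also 1 of the 12 members that were lower in day 3 replicate 2 (10.86, against 11.21 and 10.92).

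The largest positive differences of complex I at day 5 were those of NDUFB3 and NDUFA1, both small membrane arm subunits. NDUFB3 was at 8.53, 9.07, 10.02 and 8.71 at day 0 and at 10.20, 11.64, 9.04 and 8.76 at day 5, a difference of 0.83 ± 0.66 (limma adjusted p 0.608). NDUFA1 was at 9.90, 10.15, 11.43 and 9.96 at day 0 and at 11.63, 11.95, 10.41 and 10.42 at day 5, a difference of 0.74 ± 0.47 (limma adjusted p 0.496). In both genes day 5 replicates 1 and 2 were high and replicates 3 and 4 were not. NDUFA5, another accessory subunit, was 10.90 ± 0.25 at day 0 and 10.57 ± 0.56 at day 5, a difference of -0.34 ± 0.42. Its day 3 difference was -0.35 with all samples, and -0.98 ± 0.35 (limma adjusted p 0.197) with day 3 replicate 2 left out.

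The 3 measured genes of complex II did not move alike. SDHA, the flavoprotein that oxidises succinate, was at 10.67, 10.31, 10.17 and 10.52 at day 0 and at 10.29, 10.07 and 10.54 at day 1. Its day 3 samples read 9.90, 9.56 and 9.80 and its day 5 samples 9.82, 9.22, 10.04 and 10.21. All 3 day 3 samples lay under all day 0 samples, and 1 day 5 sample reached into the day 0 range. The difference was -0.67 ± 0.26 at day 3 (limma adjusted p 0.452, unadjusted 0.0243) and -0.60 ± 0.24 at day 5 (limma adjusted p 0.211, unadjusted 0.0281). Leaving out day 3 replicate 2 made the day 3 difference -0.57 ± 0.29 (limma adjusted p 0.418).

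SDHC and SDHD are the membrane anchors of complex II. SDHD, whose promoter is shown above, was at 11.24, 11.06, 11.37 and 10.50 at day 0 and at 11.13, 11.69 and 11.01 at day 1. At day 3 it was at 9.80, 11.89 and 9.91, and at day 5 at 11.21, 11.36, 10.19 and 10.09. Day 3 replicates 1 and 3 and day 5 replicates 3 and 4 were thus the 4 lowest of the 14 samples, while day 3 replicate 2 was the highest. The day 3 difference was -0.51 ± 0.49 (limma adjusted p 0.864), and -1.19 ± 0.40 without day 3 replicate 2 (limma adjusted p 0.159). SDHC was 11.43 ± 0.43 at day 0 and 11.98 ± 0.55 at day 5, a difference of 0.55 ± 0.35 (limma adjusted p 0.495).

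In complex III, UQCRC1 and UQCRC2 are the core proteins on the matrix side. UQCRC1 was 11.68 ± 0.28 at day 0 and 11.81 ± 0.24 at day 5, and UQCRC2 was 12.87 ± 0.18 and 12.59 ± 0.33, both with groups that overlapped. The row shared by UQCRB and UQCRBP1 was at 11.58, 12.08, 12.08 and 11.84 at day 0 and at 12.69, 12.69, 12.17 and 12.31 at day 5, a difference of 0.57 ± 0.26 (limma adjusted p 0.29, unadjusted 0.0493). Signal of a gene and its pseudogene cannot be told apart on such a row.

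In complex IV the subunits found in most tissues showed small differences at day 5: 0.22 ± 0.27 for COX4I1, -0.08 ± 0.34 for COX5A, 0.27 ± 0.62 for COX5B, 0.07 ± 0.21 for COX6B1, 0.35 ± 0.64 for COX7A2 and 0.10 ± 0.25 for COX8A. The interval lay within 2-fold in either direction for COX4I1 (-0.35 to 0.80), COX5A (-0.81 to 0.65), COX6B1 (-0.38 to 0.53) and COX8A (-0.45 to 0.65). COX6C, a small membrane subunit, was at 9.45, 10.23, 11.52 and 10.63 at day 0 and at 11.64, 12.09, 10.14 and 10.12 at day 5, a difference of 0.54 ± 0.58.

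Complex IV also has isoforms known from single tissues: COX4I2 from lung, COX6A2 and COX7A1 from heart and skeletal muscle, and COX6B2 and COX8C from testis. The rows of COX4I2, COX6A2, COX7A1 and COX8C were among the dimmest 25% of the array, under a mean of 5.83, where values are close to the background of the array and differences are uncertain. COX8C was at 4.85, -0.46, 4.28 and 5.56 at day 0 and at 5.41, 4.91, 6.25 and 4.77 at day 5, so its difference of 1.78 ± 1.35 came mainly from 1 day 0 sample. COX6A2 differed by 0.94 ± 0.78 and COX7A1 by 0.22 ± 0.39. COX4I2 was at 6.07, 6.05 and 6.29 at day 1 and at 5.54, 4.62, 6.24 and 4.76 at day 0, with a difference of 0.85 ± 0.42 (limma adjusted p 0.881). Among rows with 1 symbol the largest positive differences at day 3 were those of COX8C (1.21 ± 1.45, and 1.66 ± 1.69 without day 3 replicate 2), NDUFB3 (1.11 ± 0.71, and 0.50 ± 0.75) and COX7B2, a testis isoform (0.71 ± 0.89). The row shared by NDUFB6 and DFFB differed by 1.09 ± 0.83, and by 0.23 ± 0.82 without that sample. COX7B2 was at 4.86, 8.98 and 5.50 at day 3, so replicate 2 alone stood high, and its difference turned to -0.56 ± 0.70 without that sample. COX6B2, on a brighter row, was 7.68 ± 0.69 at day 0 and 7.89 ± 0.49 at day 5.

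In complex V, ATP5F1A is the alpha subunit of the catalytic head. It was 13.60 ± 0.13 at day 0, 13.46 ± 0.09 at day 1 and 13.37 ± 0.03 at day 3. Day 5 stood at 13.51 ± 0.16, and its interval at day 5 was -0.46 to 0.29. ATP5F1C, the gamma subunit, was 12.61 ± 0.26 at day 0 and 12.68 ± 0.44 at day 5. ATP5F1D, the delta subunit of the stalk, was at 11.31, 11.11, 11.45 and 11.07 at day 0 and at 10.73, 10.97, 10.86 and 10.93 at day 5, so each day 5 sample lay under each day 0 sample. The difference was -0.36 ± 0.20 (limma adjusted p 0.404). The row shared by ATP5F1E, the epsilon subunit, and its pseudogene was at 9.41, 9.89, 10.32 and 8.64 at day 0 and at 10.53, 11.82, 10.19 and 9.82 at day 5. Its day 5 difference of 1.03 ± 0.53 (limma adjusted p 0.364) was the second largest after COX8C, and its day 3 difference was 0.95 ± 0.57, or 0.33 ± 0.54 without day 3 replicate 2.

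ATP5MC1, ATP5MC2 and ATP5MC3 encode the same c subunit, which forms the rotating ring of the ATP synthase in the membrane, with different import sequences. ATP5MC1 was at 11.19, 11.03, 12.00 and 10.76 at day 0 and at 10.88, 11.63 and 10.88 at day 1. At day 3 it was at 9.40, 12.29 and 9.66, and at day 5 at 10.69, 11.53, 10.09 and 9.65. Day 3 replicates 1 and 3 and day 5 replicates 1, 3 and 4 all lay under every day 0 and day 1 sample, and the second replicates of both days lay within or above that range.

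The difference of ATP5MC1 was the most negative of all members at day 5, at -0.76 ± 0.59 (limma adjusted p 0.596), and at day 3, at -0.80 ± 0.63 (limma adjusted p 0.825). With that sample of day 3 left out the difference was -1.72 ± 0.48, with a limma adjusted p of 0.0879 and an interval of -2.77 to -0.66. When day 5 replicate 2 was left out as well, ATP5MC1 passed at day 3 (limma adjusted p 0.0254) and was 1 of 1 member called, against 5.72% of all rows. The difference stayed at -1.72, as no day 5 sample enters it. The estimate of the spread that the groups share changed, and so did the adjustment over all rows. With only day 3 replicate 2 left out, 3.19% of all rows had passed. The pass therefore does not rest on a larger difference. Set against the members' own median in each sample, a scale added after the data were seen, ATP5MC1 was at 11.29, 11.12, 11.55 and 11.29 at day 0 and at 10.38, 10.85, 10.42 and 10.05 at day 5, with no overlap. It was 1 of 5 members without overlap on that scale at day 5, against 8% of all rows. SDHD was the other lower one, and NDUFB2, SDHC and the shared row of ATP5F1E were higher. On that scale it differed by -0.89 ± 0.36 at day 5 (limma adjusted p 0.339; 1.82% of all rows passed), and adjusted p was 0.0744 without day 3 replicate 2 (3.52%). At day 3 it passed without day 3 replicate 2 (-1.43, limma adjusted p 0.037; 1.24% of all rows passed) and not with it (-0.89, limma adjusted p 1).

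The other c subunit genes had smaller differences. ATP5MC2 was at 13.39, 12.87, 13.12 and 12.43 at day 0, at 12.57, 12.77 and 12.87 at day 3, and at 12.61, 12.91, 12.56 and 12.64 at day 5, a day 5 difference of -0.27 ± 0.22 (limma adjusted p 0.618). ATP5MC3 was 12.00 ± 0.33 at day 0 and 12.00 ± 0.53 at day 5, a difference of -0.01 ± 0.33. Whether ATP5MC1 differed from ATP5MC2 or ATP5MC3 in its course was not tested.

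**Figure D3:**
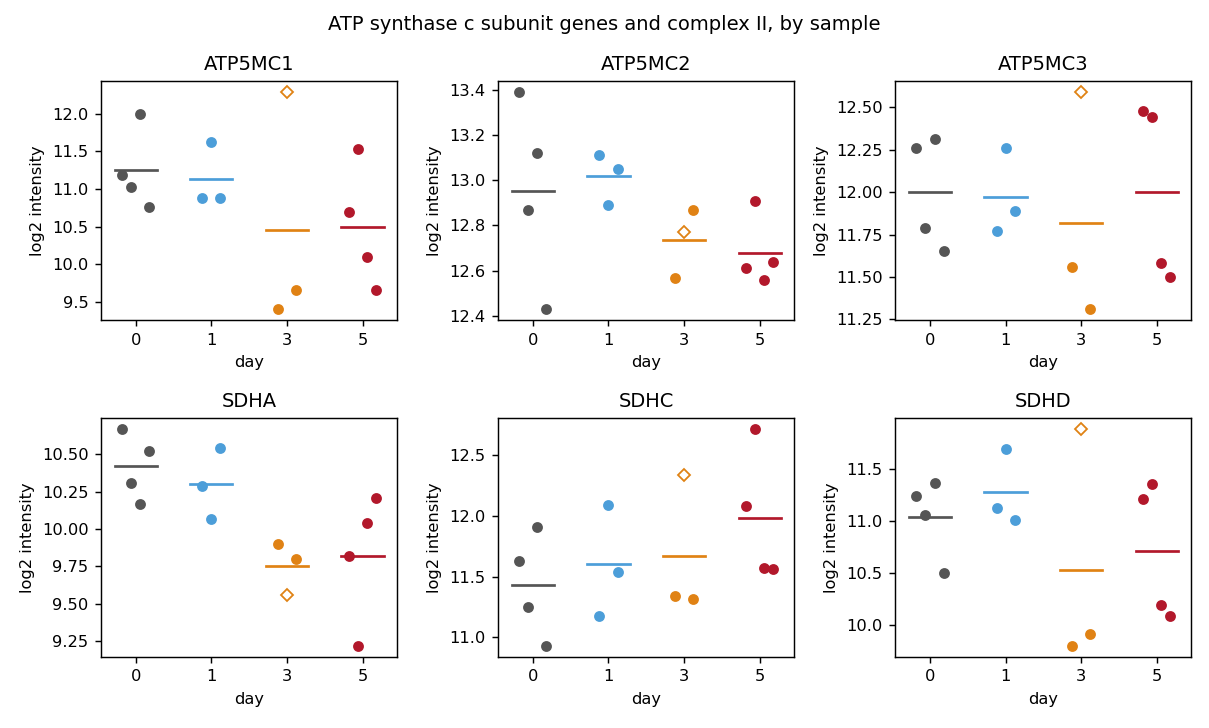
Log2 intensity of the 3 c subunit genes of the ATP synthase (top) and the 3 measured complex II genes (bottom) in each biological sample by day, each on its own scale; bars are group means and the open diamond is day 3 replicate 2. ATP5MC1 lies at 9.40 and 9.66 in the other day 3 samples and at 12.29 in day 3 replicate 2, whereas all 3 day 3 samples of SDHA lie between 9.56 and 9.90.

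Of 131 measured genes on 9 lists that build or feed the respiratory chain, 7 passed the test at day 5 against day 0 (5.34%, against 5.46% of all rows), and 10 without day 3 replicate 2 (7.63%, against 8.73%), shares near those of all rows. At day 3 there were 0 with all samples (against 0.027% of all rows) and 5 without that sample (3.82%, against 3.19%). At day 1 there were 0 either way, against 0.00541% and 0.249% of all rows. Of 26 measured assembly factors of complexes II to V, 1 rose and 0 fell: ATPAF2, a chaperone that binds the alpha subunit of the ATP synthase, was at 8.09, 7.96, 8.17 and 7.74 at day 0 and at 9.30, 10.24, 9.87 and 9.68 at day 5. It rose by 1.78 ± 0.23 (limma adjusted p 0.000799), with day 1 at 8.56, 8.65 and 8.70 between the groups, and it passed under all 25 alternatives run. Of 15 complex I assembly factors none passed, and those with the largest differences were ECSIT (-0.57 ± 0.23) and ACAD9 (-0.51 ± 0.35).

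Among 15 regulators of mitochondrial biogenesis, 1 fell. PPARGC1B, a coactivator related to PGC-1 alpha, was at 7.45, 7.90, 7.09 and 8.01 at day 0 and at 4.36, 4.87, 6.11 and 6.27 at day 5, and fell by 2.21 ± 0.43 on the log2 scale (limma adjusted p 0.00964). Its day 5 mean of 5.40 lay under 5.83, the level of the dimmest rows, so the size of the fall is uncertain. The row of NRF1, the factor of the promoter motif above, was 0.10 ± 0.18 higher at day 5, and that of TFAM, which packages and transcribes mitochondrial DNA, differed by -0.28 ± 0.38. Neither passed, and both were chosen after their values were seen.

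Of 19 genes of the TCA cycle and pyruvate dehydrogenase, 1 rose and 3 fell. IDH2, the mitochondrial NADP-dependent isocitrate dehydrogenase, named after its values were seen, was at 9.64, 9.54, 9.56 and 9.61 at day 0 and at 8.61, 8.45, 8.13 and 8.80 at day 5, and fell by 1.09 ± 0.21 (limma adjusted p 0.00833). OGDH, of the 2-oxoglutarate dehydrogenase complex, fell by 1.10 ± 0.27 (limma adjusted p 0.0287). PDK1 and PDK3 are kinases that switch off pyruvate dehydrogenase. PDK3 fell by 1.22 ± 0.29 (limma adjusted p 0.029), while PDK1 rose by 1.51 ± 0.41 (limma adjusted p 0.0497), from 9.72, 10.23, 10.52 and 9.51 at day 0 to 12.03, 12.07, 11.55 and 10.36 at day 5. The day 5 replicate 4 value of PDK1 lay within the day 0 range.

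Of 12 genes for cytochrome c and coenzyme Q synthesis 1 fell: COQ8A, by 0.74 ± 0.19 (limma adjusted p 0.0438), from 8.23 to 8.59 over the day 0 samples to 7.67 to 7.72 over those of day 5. COQ8A lost its call without any 1 of the 8 samples of days 0 and 5 (limma adjusted p 0.0631 to 0.134). PDK1 lost it without all but day 5 replicate 4 (0.0572 to 0.148). OGDH lost it without day 0 replicates 1 to 4 (0.0925, 0.056, 0.0566 and 0.0874) and day 5 replicates 1 and 2 (0.0759 and 0.0733). PDK3 lost it without day 0 replicates 1, 2 and 3 (0.091, 0.0939 and 0.0662) and day 5 replicates 1, 3 and 4 (0.0635, 0.0769 and 0.0661). IDH2 and PPARGC1B kept theirs without each of the 8, but lost it when the values were centred on the members' median (0.119 and 0.137), as did COQ8A, OGDH and PDK1 (0.39, 0.385 and 0.19). That centring lowered calls in general: 1.82% of all rows passed at day 5, against 5.46% without it.

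The remaining lists had no gene past the test at day 5 with all samples. IMMT passed when day 3 replicate 2 was left out (-0.68, limma adjusted p 0.0395). Those with the largest differences were TOMM40 (-0.81 ± 0.30) and HSPD1 (-0.53 ± 0.21) among 13 of mitochondrial import, SLC25A12 (-1.05 ± 0.47) and UCP1 (0.74 ± 0.51) among 16 carriers and uncoupling proteins, SOD1 (-0.43 ± 0.30) and CAT (0.28 ± 0.31) among 7 antioxidant enzymes, and HIGD1A (0.79 ± 0.34) and IMMT (-0.68 ± 0.22) among 8 inhibitor and respirasome factors. The median differences of the 9 lists lay between -0.33 and 0.11. Whether these genes differ from the members as a group was not tested.

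**Figure D4:**
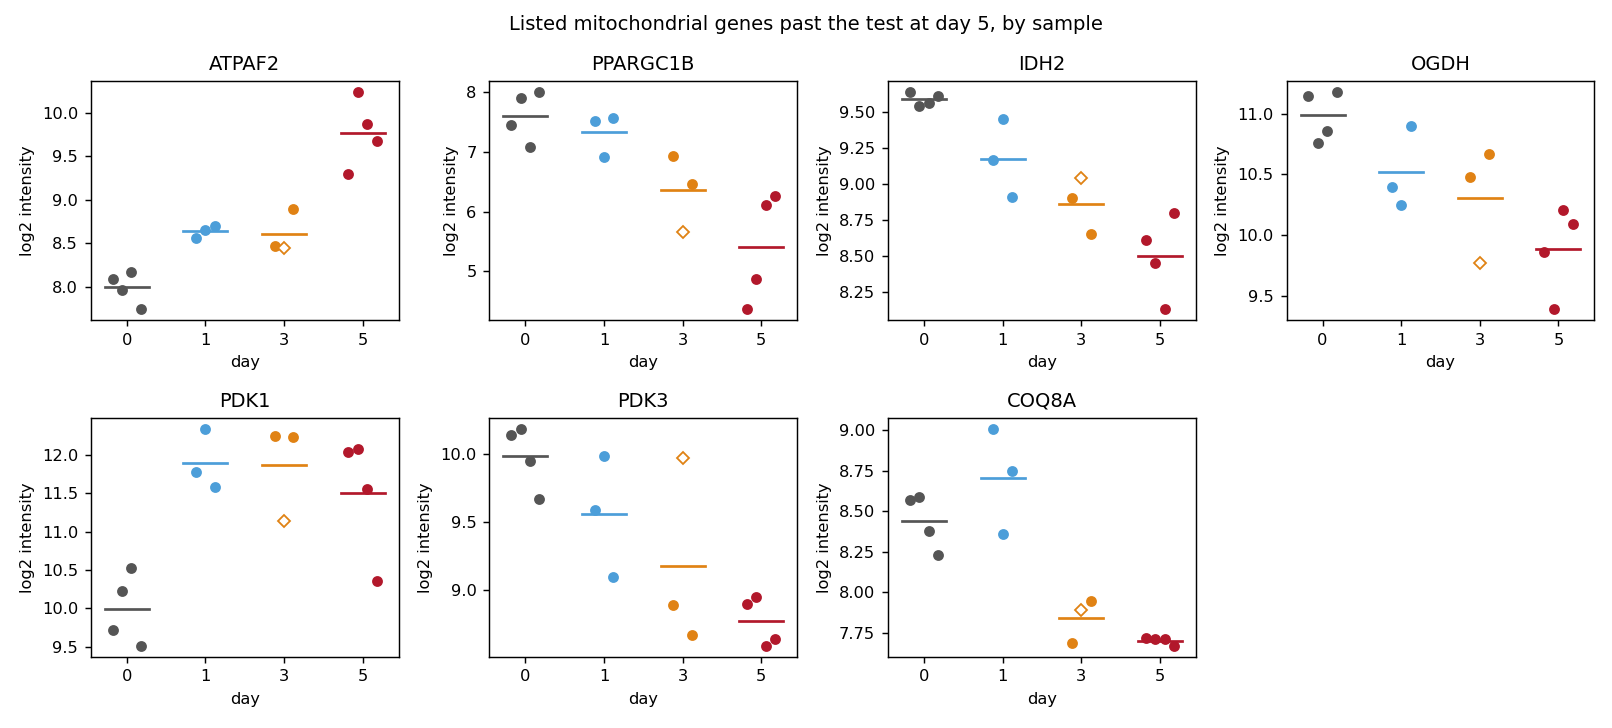
Log2 intensity of the 7 listed mitochondrial genes past the limma test at day 5 against day 0, in each biological sample by day, each on its own scale; bars are group means and the open diamond is day 3 replicate 2. ATPAF2 lies between 7.74 and 8.17 at day 0 and between 9.30 and 10.24 at day 5.

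Cell type markers were read beside these results. All 9 endoderm markers rose at day 5, GATA6 by 5.79 ± 1.03, CXCR4 by 5.19 ± 0.94 and SOX17 by 4.88 ± 1.00. Of 8 pluripotency markers 3 fell: PRDM14 (-2.58 ± 0.40), DNMT3B (-1.83 ± 0.43) and LIN28B (-0.77 ± 0.19). The summed intensity of the endoderm list was 2630 to 7240 at day 0, 8380 to 25300 at day 1 and 41900 to 57500 at day 5. At day 3 it was 39200 and 44600 in replicates 1 and 3 and 3870 in replicate 2, the day 3 sample in which most members were highest. SOX17, the defining endoderm gene, was at 11.21, 5.52 and 11.37 there. Of 8 primitive streak markers 5 rose and 1 fell, and FGF17 (6.56 ± 1.32), GSC (6.12 ± 1.01) and EOMES (5.33 ± 1.03) rose most. Of 6 mesoderm markers HAND1 rose and KDR fell, of 7 fibroblast markers LUM rose and THY1 fell, and of 3 neural markers PAX6 rose. The summed fibroblast list was 6060 to 9430 at day 0, 3660 to 4330 at day 1, 2630 to 3810 at day 3 and 2420 to 6590 at day 5. The summed mesoderm list was 2080 to 2180 at day 0 and 1050 to 1530 at day 5, with no overlap. A sum is led by its brightest genes, and the median log2 values did not fall. They were 5.90 to 6.21 at day 0 and 6.83 to 8.66 at day 5 for fibroblast, and 5.90 to 6.78 and 6.23 to 7.23 for mesoderm. The median differences of the single genes at day 5 were -0.15 and -0.11. Their part in the members' values was not tested.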

How the data were processed

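H9 cells were measured on 16 Human Exon 1.0 ST arrays. The deposited table holds 1 intensity per row and array on a linear scale, from -0.273 to 30307.1 (636 values below 0). Genome build hg18 is named in the submitters' processing notes, and for the authors' background correction, summarisation and scaling the tools were not given in those sources. Rows were named by GEO's platform annotation: 14577 with 1 symbol, 2849 with several and 1069 with none.

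Values were taken to log2 after adding 1, technical replicates were averaged, and limma 3.58.1 (R 4.3.3; functions lmFit, eBayes) fitted the day groups (no other term, 10 residual and 3 prior degrees of freedom). Benjamini-Hochberg adjustment ran across all 18495 rows, with 0.05 as threshold. SE is that of limma and SD is over samples. The code was tested on simulated data. The members, the 15 gene lists and the naming rule were chosen with earlier results of these data known. The named members are the largest differences at days 3 and 5 on rows with 1 symbol, core subunits and tissue isoforms. From each list the text names up to 3 genes past the test or the 2 largest. Centring on the members' median and the comparison rows were added after seeing the data. Tables and plots came from pandas 2.3.3, matplotlib 3.10.9 and numpy 2.4.6 under Python 3.11.15.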

Additional observations from a re-analysis of the deposited data

Results flagged for a closer look

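Groups of 4 samples at days 0 and 5 were checked for the median over all members, the median of each complex and the named members. Over these 70 groups, 4 had 1 sample far from the others by Dixon's criterion (the gap to the nearest sample over the range), and chance gives about 1 in 20 groups. NDUFA1 in day 0 replicate 3 was at 11.43, with the others at 9.90 to 10.15. UQCRC1 in day 0 replicate 1 was at 12.10, with the others at 11.53 to 11.55. ATP5F1A in day 5 replicate 1 was at 13.75, with the others at 13.40 to 13.45. COX7A1 in day 0 replicate 4 was at 6.16, with the others at 5.45 to 5.52, on a dim row.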

How the results depend on the processing

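The count of 0 members past the limma test held in all 5 contrasts under every alternative run except 3. With array weights, a fit that stopped before it converged, the counts were 4 at day 1, 7 at day 3 and 3 at day 5 against day 0, 15 at day 3 against day 1 and 3 at day 5 against day 3, while 13.7%, 15.1%, 16.2%, 34.1% and 4.31% of all rows passed. ATP5MC1 was among them at day 3 (-1.67, adjusted p 0.00392) and day 5 (-1.20, adjusted p 0.0174), and SDHD at day 3 (-1.18, adjusted p 0.00863). Without replicate 2 of days 3 and 5 the count was 1 at day 3 against day 0 (ATP5MC1) and 2 at day 3 against day 1 (ATP5MC1, -1.60, adjusted p 0.0406, and SDHD, -1.42, adjusted p 0.0463), against 5.72% and 6.37% of all rows. Centred on the members' median and with day 3 replicate 2 left out, 1 member passed at day 3 against day 0 (ATP5MC1). Leaving out any 1 sample gave 0. Medians over all members and over each complex moved by less than 1 SD of the sample medians under each alternative, though the day 3 median over all members changed sign without day 3 replicate 2. With the replicate number as a block the count stayed 0 in each contrast. Same-numbered samples' deviations correlated from -0.284 to 0.645, so the numbers were not taken as a pairing. Placing NDUFA4 with complex IV was not run, as no row carried it. PDK1 also lost its call with technical replicate 1 alone (0.0636), in the fit of only the groups compared (0.0782) and without replicate 2 of days 3 and 5 (0.0557), and COQ8A in the fit of only the groups compared (0.0621) and with a variance trend (0.053). Dim rows and 3 or 4 samples a group limit what could be called.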
